A study of Danio rerio with 6 samples.

Results

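The heat shock and endoplasmic reticulum (ER) stress genes are a list of 51 zebrafish genes that encode cytosolic, mitochondrial and ER chaperones and the factors that regulate them. The list was searched for by gene symbol among the targets of the array, where each target stands for 1 transcript or assembled sequence and is read by at most 3 probes. Of the 51 genes 36 had a target, which gave 50 targets of 38489 on the array. The symbol stood in the file for 25 of these targets, an older gene name for 18 and a RefSeq accession for 7. The 15 genes without a target under their own name were the cytosolic chaperone genes hsp70l, hsp70.1, hsp70.2, hspa8b, hspb1, hspb6, hsph1, dnaja1 and dnajb1b, the mitochondrial hspa9, the ER genes hspa5 and pdia3, and the regulators atf4a, atf4b and ddit4.

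The samples were whole brains of female zebrafish of the AB strain, dissected at 12 months of age. The lead group had been held in lead acetate at 100 ppb as embryos, from before 2 until 72 hours after fertilization, and the control group at 0 ppb over the same hours. Both groups were then raised in water without added lead, so the brains were taken long after the exposure had ended. Each group had 3 brains, 1 per array, and the comparison of the groups asks how the adult brain differs after an exposure limited to embryonic life.

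Molecular chaperones bind unfolded proteins and help them to fold, refold or be degraded. In the heat shock response, unfolded protein in the cytosol draws chaperones away from the transcription factor Hsf1, which then switches on chaperone genes. In the unfolded protein response, the sensors Ire1, Perk and Atf6 in the ER membrane act through Xbp1, Atf4 and a released part of Atf6 to raise ER chaperones, ER-associated degradation and, under lasting stress, genes such as ddit3. Neurons carry high amounts of the constitutive chaperones Hsc70 and Hsp90.

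The 6 arrays correlated with each other at 0.965 to 0.988 (Pearson, log2 values across targets). The median target intensity was 2100 to 2211, and 59.8% to 66.7% of targets lay above background, which was set on each array at the 95th percentile of its random probes. The brain label was checked by cell type markers. All measured neuron (6 of 10 listed), radial glia (5 of 6) and oligodendrocyte (3 of 6) markers lay above background on every array. Of the measured markers from outside the brain, 0 of 4 lens, 0 of 4 muscle and 1 of 8 pituitary markers did. However, 3 of 6 skin and 6 of 6 erythrocyte markers also did, so the check does not set brain apart from every other tissue. Control 1 stood apart in its summed pituitary markers, at 89531 against 7624 to 17595 on the other arrays. It was also the highest in summed skin (67212) and muscle (6160) markers. Singly, prl was highest on lead 3 (12.56 log2, against 11.13 on control 1) and krt17 and krt97 on control 3. The muscle marker tnnt3a was lowest on control 1. All other measured markers of these tissues were highest on control 1. Summed erythrocyte markers were 94725 to 102228 in controls and 44667 to 89513 after lead, without overlap. The low arrays were lead 2 (44667) and lead 3 (56589), with lead 1 at 89513. Singly, the groups were apart for alas2 and hbaa2, while in hbaa1, ba1l, cahz and slc4a1a lead 1 lay within the control range. Summed lens markers also did not overlap, at 2603 to 2627 in controls and 2958 to 3094 after lead. The part of these cell types in the results below was not tested. The image names place all arrays on 1 scan and the arrays of each group next to each other, so position and group cannot be told apart. In whole brains, fewer cells of a type and less RNA per cell cannot be told apart. Nothing in the labels says whether the brains came from separate tanks or clutches, so p-values measure only the spread between these brains.

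No difference in these genes between adult brains exposed to lead as embryos and control brains passed the test. No member target passed an adjusted p of 0.05 in limma (0 of 50), as none of all 38489 targets did (0% of targets called). At an unadjusted p under 0.05 there were again 0 of 50 member targets, where 1696 of all targets, or 4.41%, lay under that value (2.57% higher and 1.83% lower in the lead brains). The lowest unadjusted p of a member, 0.0729, belonged to a target of hsf1 below background, with an adjusted p of 0.958 in limma. Of the 50 targets 26 were higher and 24 lower in the lead brains, that is 52.0% higher against 50.5% of all targets. The median change was 0.01 log2 over the members and 0.00 over all targets, and 43 of 50 changes were smaller than 0.25 log2.

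How tightly the data bound these changes can be read from the 95% intervals of limma. The intervals refer to the signal on the array, and whether it was proportional to the amount of RNA in the brightest targets was not tested. For 33 of 50 member targets (66.0%) the whole interval lay within a 1.5-fold change in either direction, as it did for 50.2% of all targets. Of the 40 member targets above background on all 6 arrays the share was 72.5%, against 57.9% of all targets above background. By class, over all 50 targets, the interval lay within 1.5-fold for 13 of 15 cytosolic, 3 of 3 mitochondrial, 13 of 17 ER and 4 of 15 regulator targets. Among targets above background on all 6 arrays it did so for 10 of 11 cytosolic, 2 of 2 mitochondrial, 13 of 15 ER and 4 of 12 regulator targets. For the rest of the 50 targets a change of 1.5-fold or more remained within the interval.

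**Figure D1:**
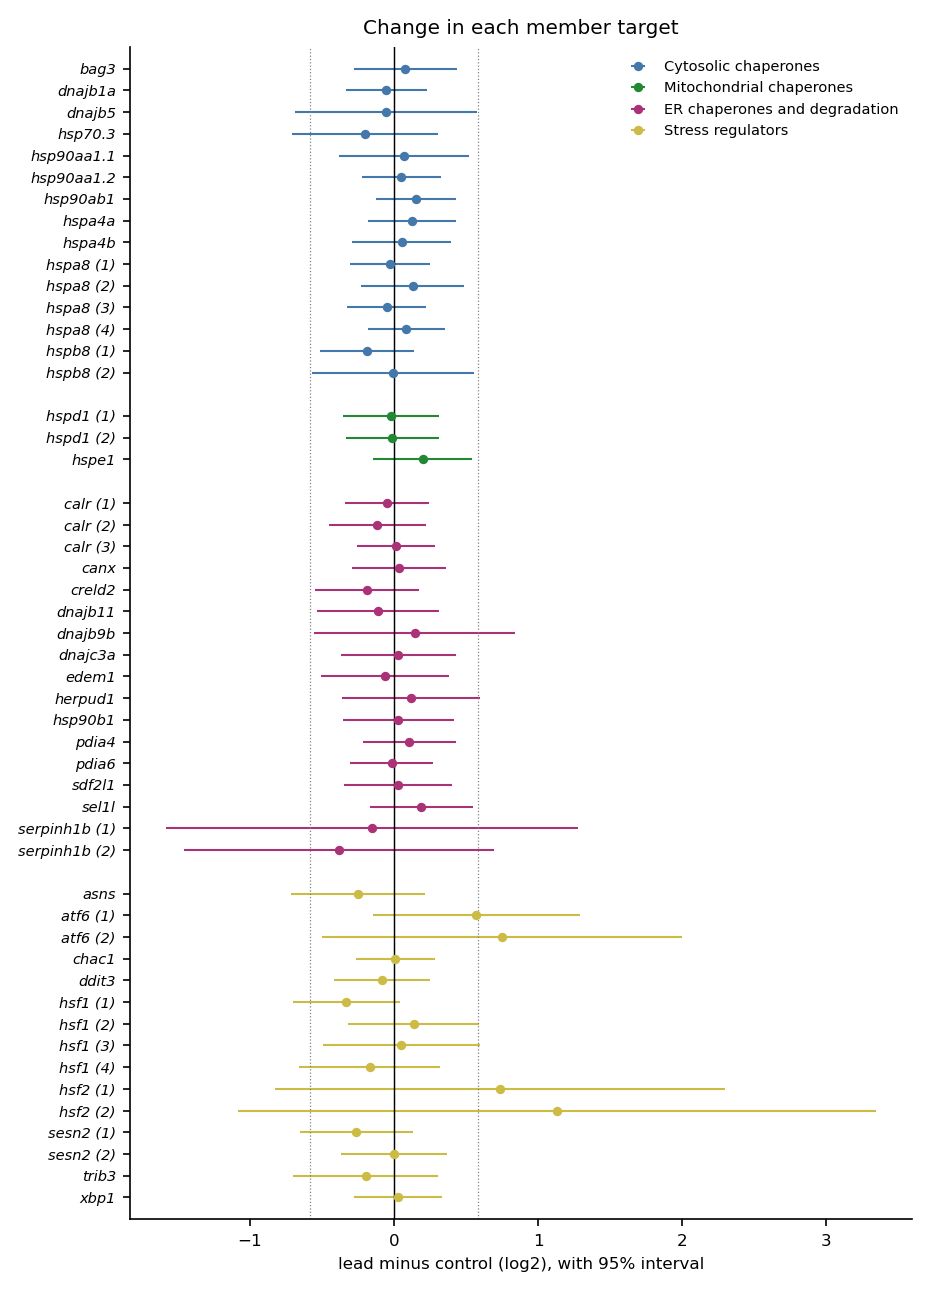
Change of each of the 50 member targets (lead minus control, log2, on the horizontal axis) with its 95% interval from limma, coloured by class, 3 arrays per group; dotted lines mark a 1.5-fold change either way, and numbers in brackets tell targets of 1 gene apart. Every interval spans 0, and the widest belong to hsf2, atf6 and serpinh1b.

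Groups did not overlap (every lead array above or below every control array) for 5 of 50 member targets, or 10.0%, against 9.49% of all targets. These were hsp90ab1, a target of hspa8 and hspe1, which were higher in the lead brains, and a target each of hspb8 and hsf1, which were lower and lay below background on every array. A share this close to that of all targets is not a result about the heat shock genes.

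The cytosolic chaperones, which handle new and damaged proteins in the cytosol and nucleus, had 15 targets of 11 genes. Of these 8 were higher and 7 lower, with a median change of 0.05 log2, and 11 lay above background on every array. The genes of Hsp90, which keeps kinases and steroid receptors in a form ready to act, included 2 bright targets. hsp90ab1, the constitutive Hsp90 gene (chromosome 20, 46664999 to 46679081), stood at 15.39, 15.28 and 15.24 log2 on the control arrays and at 15.45, 15.44 and 15.48 on the lead arrays. All lead arrays lay above all control arrays, by a small margin. The change was 0.15 ± 0.12 (moderated SE of limma, n = 3 per group), with an interval of -0.12 to 0.43 (limma, adjusted p = 0.958). Every ± value in this text is such an SE, in which the spread of a target is drawn toward that of all targets. hsp90aa1.2, another cytosolic Hsp90 gene, was at 0.05 ± 0.12, and its levels lay within 0.15 log2 over all 6 arrays. Its neighbour hsp90aa1.1, known for its role in muscle of zebrafish, was below background on all arrays.

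hspa8 encodes Hsc70, the constitutive Hsp70 that also strips clathrin from synaptic vesicles, and had 4 targets. The target with the highest mean (OTTDART00000009644) stood at 15.29, 15.34 and 15.41 in controls and 15.38, 15.28 and 15.30 after lead. These values intermingled, with a change of -0.03 ± 0.12. A second target (OTTDART00000009646) lies inside the same stretch of the sequence named H_10_25. It stood at 15.23, 15.15 and 15.21 in controls and 15.19, 15.09 and 15.17 after lead, a change of -0.05 ± 0.12. The third, OTTDART00000009645, overlaps the first and was dimmer. It stood at 12.68, 12.52 and 12.42 in controls and 12.89, 12.53 and 12.59 after lead, a change of 0.13 ± 0.15, and the groups overlapped. The fourth, OTTDART00000024041, was annotated on chromosome 10 (18779912 to 18781735). Where H_10_25 lies relative to it is not given. Its values of 14.76, 14.76 and 14.71 in controls and 14.82, 14.81 and 14.86 after lead did not overlap. The change there was 0.09 ± 0.11, with an interval of -0.18 to 0.35. The targets of this gene therefore disagreed in direction, each by less than its moderated SE. The within-group SD of the fourth target was 0.03 log2, below its moderated SE. Genes of the Hsp70 family are alike in sequence, and how far each probe also reads its relatives was not tested.

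Among the helpers of Hsp70, hspa4a, which encodes a nucleotide exchange factor of the Hsp110 family, stood at 14.15, 14.21 and 14.17 in controls and 14.31, 14.43 and 14.15 after lead. Lead 1 and lead 2 lay above the controls and lead 3 level with the lowest of them, and the change was 0.13 ± 0.13. Its paralog hspa4b was at 0.05 ± 0.15. dnajb5, a J-domain co-chaperone gene, stood at 11.60, 12.30 and 11.94 in controls and 11.67, 12.39 and 11.61 after lead. Control 2 and lead 2 were the highest of all, so that the spread ran across both groups, and the change was -0.05 ± 0.27. The co-chaperone genes dnajb1a and bag3 were at -0.05 ± 0.12 and 0.08 ± 0.15.

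The inducible hsp70.3 and the small heat shock gene hspb8 gave little signal in these brains. hsp70.3, of the Hsp70 family, lay above background on 1 of 6 arrays, a control. hspb8, whose small heat shock protein works with Bag3, had 2 targets below background on every array. OTTDART00000019051 stood at 8.32, 7.99 and 8.03 in controls and 7.94, 7.96 and 7.89 after lead, without overlap. OTTDART00000022842 stood at 8.95, 9.07 and 9.01 in controls and 9.39, 9.14 and 8.47 after lead, with lead 1 the highest and lead 3 the lowest. As both groups were below background, no change is given for hspb8.

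**Figure D2:**
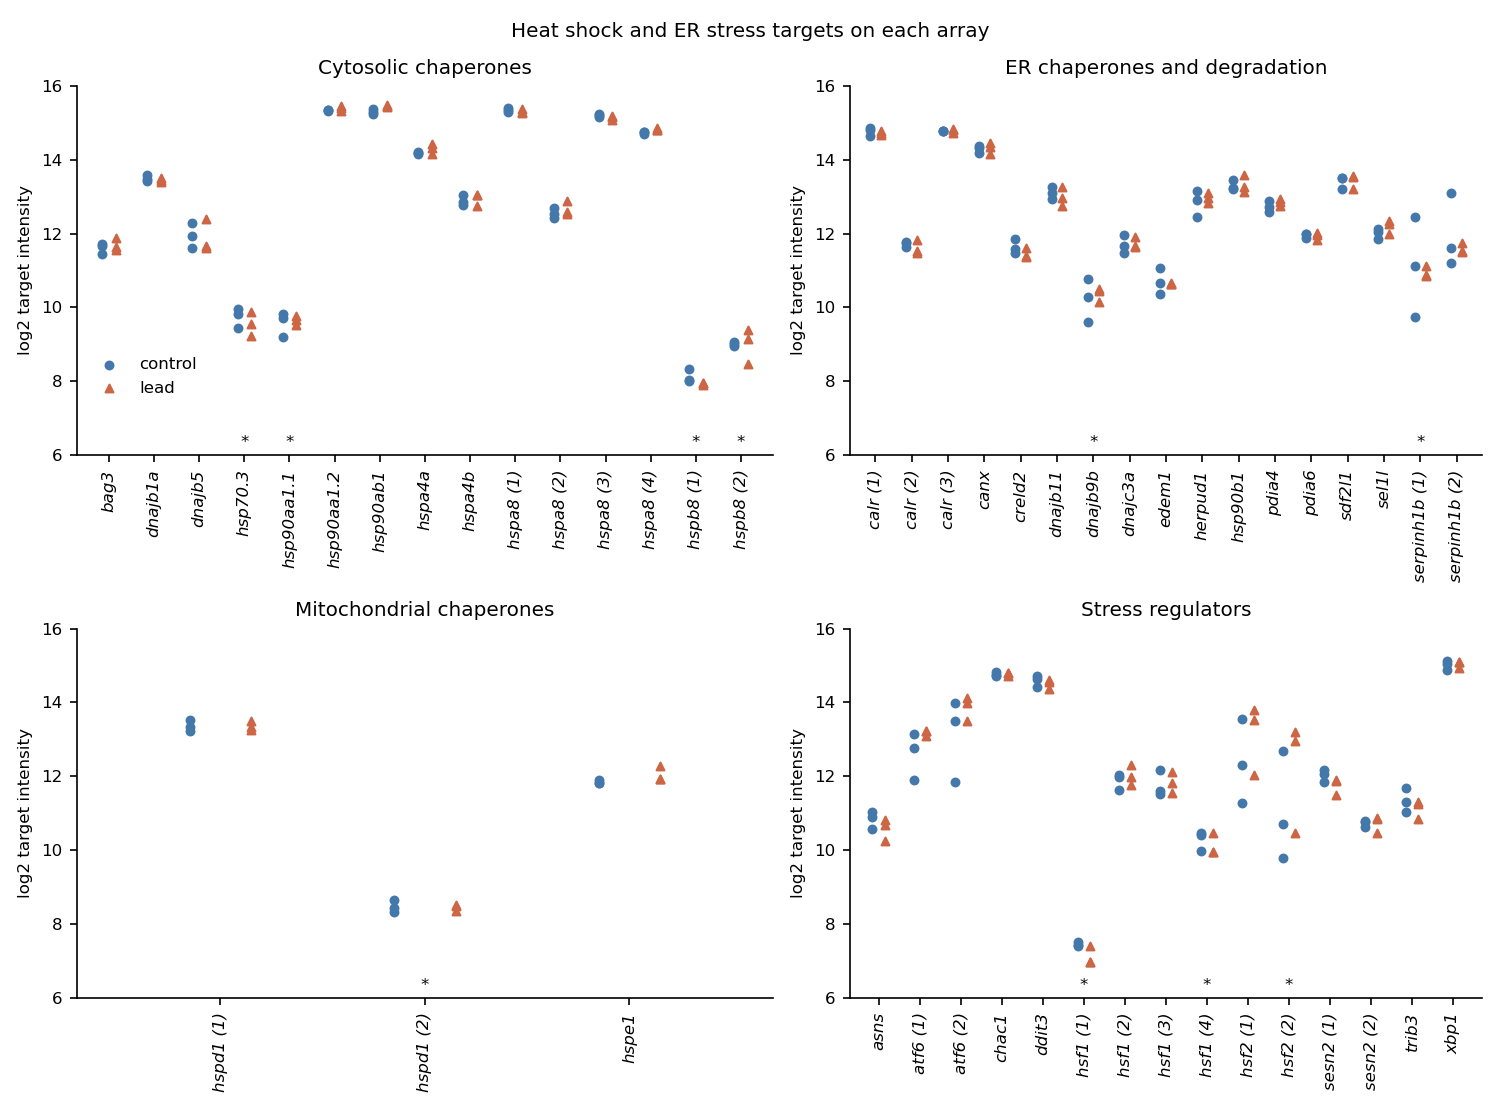
Level of each member target (log2 intensity) on every array, controls as circles and lead as triangles, in 4 panels by class; an asterisk marks a target that was not above background on all 6 arrays. Control and lead points are fully apart for 5 of 50 targets, and levels of different targets are not to be compared, since each probe has its own response.

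Mitochondrial chaperones fold proteins after import, Hsp60 (hspd1) forming the folding chamber and Hsp10 (hspe1) its lid. They had 3 targets of 2 genes with a median change of -0.01 log2. hspe1 (chromosome 9, 21039787 to 21043669) stood at 11.83, 11.90 and 11.82 in controls and at 11.93, 12.29 and 11.93 after lead. All lead arrays lay above the controls, lead 2 the farthest. The change was 0.20 ± 0.15, with an interval of -0.14 to 0.54 (limma, adjusted p = 0.958). Of its 3 probes 2 were higher and 1 lower, and without lead 2 the change was 0.08. hspd1, which lies beside hspe1 on the same chromosome, gave 13.24, 13.34 and 13.54 in controls and 13.24, 13.49 and 13.33 after lead with OTTDART00000026176. Those groups overlapped fully, at -0.02 ± 0.14. The other target of hspd1, OTTDART00000026177, was below background on every array, at 8.63, 8.42 and 8.33 in controls and 8.51, 8.48 and 8.35 after lead.

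The ER chaperones and the genes of ER-associated degradation had 17 targets of 14 genes, 15 of them above background on all arrays. Of the 17, 9 were higher and 8 lower, with a median change of 0.02 log2, and the groups overlapped for every target. hsp90b1, the gene of the ER-resident Hsp90 known as Grp94 and a common readout of the unfolded protein response, stood at 13.45, 13.23 and 13.22 in controls. It stood at 13.59, 13.27 and 13.13 after lead, and lead 1 and lead 3 were the highest and the lowest of all. Its change was 0.03 ± 0.16. sel1l, which encodes a part of the complex that passes misfolded proteins out of the ER, was at 12.12, 12.03 and 11.85 in controls and 12.33, 12.26 and 11.98 after lead. Lead 1 and lead 2 lay above all controls and lead 3 between them, and the change was 0.19 ± 0.15. creld2, an ER stress-responsive gene in mammals, was at 11.86, 11.48 and 11.57 in controls and 11.60, 11.36 and 11.39 after lead. Control 1 was the highest, and the change was -0.19 ± 0.15.

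The lectin chaperones, which hold glycoproteins in the ER until they have folded, were measured with narrow spread. Targets named calr (calreticulin) lay at 3 separate places in the annotation, on chromosomes 8 and 22 and on a scaffold, so they may not be 1 gene. The target on chromosome 22 (OTTDART00000020809) stood at 11.77, 11.65 and 11.74 in controls and 11.47, 11.82 and 11.51 after lead. Lead 1 and lead 3 were the lowest and lead 2 the highest, for a change of -0.12 ± 0.14. The other targets of that name were at 0.02 ± 0.11 and -0.05 ± 0.12, and canx, the membrane-bound calnexin, was at 0.03 ± 0.14. Of the protein disulfide isomerases, which form and reshuffle disulfide bonds, pdia4 was at 0.11 ± 0.14 and pdia6 at -0.02 ± 0.12. The ER co-chaperone genes dnajb11, dnajc3a and sdf2l1 ranged from -0.11 ± 0.18 to 0.03 ± 0.17. The degradation factors edem1 and herpud1 were at -0.06 ± 0.19 and 0.12 ± 0.20, and dnajb9b, above background on 4 of 6 arrays, was at 0.14 ± 0.29.

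The regulators had 15 targets of 9 genes, 12 of them above background on all arrays. Of these 15, 8 were higher and 7 lower, with a median change of 0.01 log2. For the output genes xbp1, ddit3 and chac1 the interval of the change lay within 1.5-fold. For asns, trib3 and the RefSeq target of sesn2, given below, it did not. xbp1, whose transcript is spliced by Ire1 to give the active factor, stood at 15.12, 15.06 and 14.89 in controls and 15.11, 14.94 and 15.09 after lead. Control 3 was the lowest, and the change was 0.03 ± 0.13. The splicing itself was not measured by this target level. ddit3, which encodes the pro-apoptotic factor Chop, was at 14.72, 14.42 and 14.65 in controls and 14.62, 14.54 and 14.38 after lead. The groups overlapped, at -0.08 ± 0.14. chac1, a glutathione-degrading enzyme gene downstream of Atf4 in mammals, varied by 0.10 log2 in all over the 6 arrays, with a change of 0.01 ± 0.12.

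Other genes known in mammals as targets of Atf4 or Ddit3 include asns, sesn2 and trib3. sesn2, a stress-induced inhibitor of mTORC1, had a RefSeq target at 12.06, 11.83 and 12.16 in controls and 11.49, 11.87 and 11.91 after lead. Lead 1 was the lowest and lead 2 and lead 3 lay among the controls, for a change of -0.26 ± 0.17 and an interval of -0.65 to 0.13. Its other target was at -0.00 ± 0.15. The asparagine synthetase gene asns and the pseudokinase gene trib3 were at -0.25 ± 0.20 and -0.20 ± 0.21. Their intervals, -0.71 to 0.22 and -0.70 to 0.31, spanned 0 and also held decreases of more than 1.5-fold.

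hsf1, the master factor of the heat shock response, had 4 overlapping targets on chromosome 19 that start at the same base, 478559. OTTDART00000031863 stood at 11.98, 11.62 and 12.03 in controls and 11.98, 11.75 and 12.31 after lead, at 0.14 ± 0.19. OTTDART00000031864 stood at 11.53, 11.61 and 12.18 in controls and 11.81, 11.55 and 12.12 after lead, at 0.05 ± 0.23. Neither separated the groups. OTTDART00000031865 stood at 9.98, 10.42 and 10.46 in controls and 9.95, 9.95 and 10.46 after lead, above background on 1 of the 3 lead arrays, at -0.17 ± 0.21. The last, OTTDART00000020400, stood at 7.50, 7.39 and 7.42 in controls and 6.98, 6.96 and 7.39 after lead. Its groups did not overlap, but all of its values were below background and no change is given for it. OTTDART00000031863 and OTTDART00000031864, above background on every array, were both higher, and OTTDART00000031865 was lower, each by less than its SE. The transcripts named hsf1 therefore gave no clear direction.

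The genes with the widest spread were hsf2, atf6 and serpinh1b. Their spread was noticed after the values were seen, and it is given as a description. Over all members the median distance between the highest and the lowest array was 0.47 log2, against 0.61 over all targets. The median within-group SD was 0.17 against 0.22. Among targets above background on all 6 arrays these gaps were smaller, with a distance of 0.43 against 0.54 and an SD of 0.16 against 0.20. Against that, the targets of hsf2 ranged over 2.52 and 3.40 log2, those of serpinh1b over 2.69 and 1.89, and those of atf6 over 1.32 and 2.27.

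**Figure D3:**
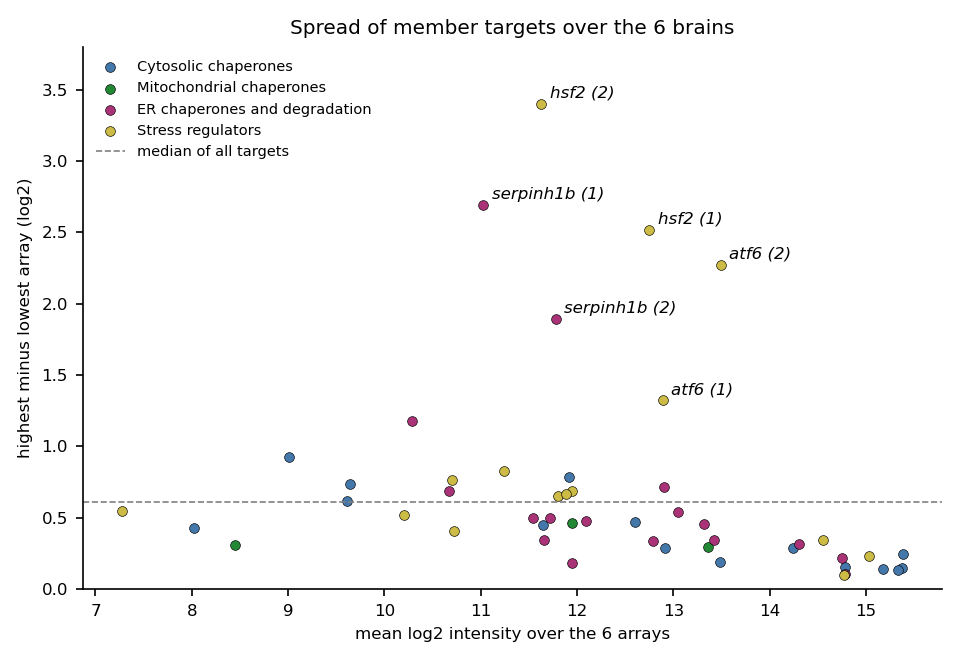
Distance between the highest and the lowest of the 6 arrays (log2, vertical axis) against the mean log2 intensity (horizontal axis) for the 50 member targets, coloured by class; the dashed line is the median of all targets, 0.61. The labelled targets of hsf2, serpinh1b and atf6 lie far above the line and most other members below it.

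hsf2 encodes a heat shock factor that acts in development and forms trimers with Hsf1. Its 2 targets cover the same gene on chromosome 20 (36549607 to 36561239 and 36549607 to 36561315), so they share sequence and are not independent. OTTDART00000002447 stood at 11.28, 13.56 and 12.30 in controls and 12.04, 13.52 and 13.80 after lead. OTTDART00000002448 stood at 9.79, 12.69 and 10.71 in controls and 10.45, 13.19 and 12.95 after lead. Control 2, lead 2 and lead 3 were high and the other 3 arrays low, so the split ran across the groups. The highest array of the second target was 10.6-fold above the lowest, a range larger than that of 99.6% of all targets, and control 1 was below background there. Every one of the 6 probes of the gene placed the same 3 arrays above the other 3, by a gap of 0.22 to 2.25 log2. The changes of 0.74 ± 0.66 and 1.13 ± 0.94 were within this spread, with an adjusted p of 0.958 in limma for both. When each array was left out in turn they ran from 0.19 to 1.33 and from 0.50 to 2.01. The genes within 100000 bases, pkib and serinc1, ranged over 0.37 and 0.25 log2. In serinc1 the same 3 arrays were also the highest, by a gap of 0.12 log2, and in pkib they were not.

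**Figure D4:**
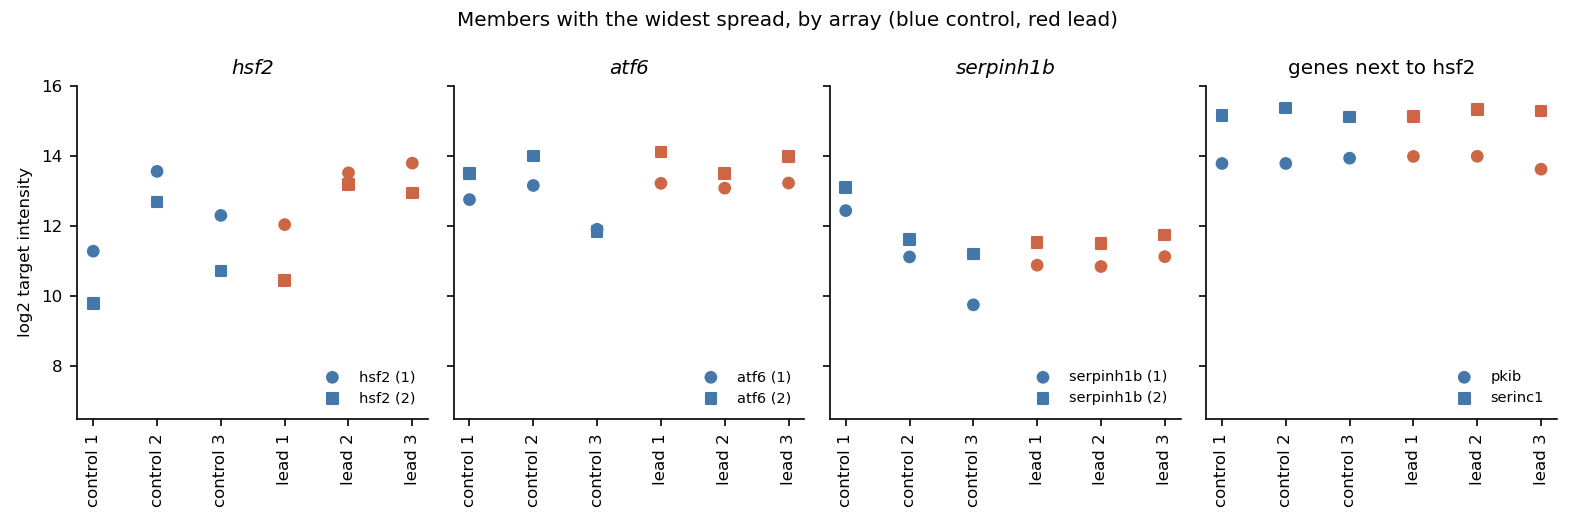
Level (log2 intensity) on each array of the targets of hsf2, atf6 and serpinh1b, and of the neighbours of hsf2, pkib and serinc1; blue points are controls and red points lead, and circles and squares are separate targets. In hsf2 control 2, lead 2 and lead 3 are high, in atf6 control 3 is low, and in serpinh1b control 1 is high.

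atf6 encodes the ER membrane sensor whose released part switches on ER chaperone genes. Its targets lie next to each other on chromosome 20. OTTDART00000006737 (29024517 to 29029555) stood at 12.75, 13.16 and 11.91 in controls and 13.22, 13.08 and 13.23 after lead. OTTDART00000006748 (29048600 to 29079887) stood at 13.51, 14.00 and 11.84 in controls and 14.11, 13.49 and 13.99 after lead. Control 3 was the lowest in both, and in 6 of 6 probes by 0.54 log2 or more, while the other 5 arrays overlapped. The changes were 0.57 ± 0.30 and 0.75 ± 0.53, with an adjusted p of 0.958 in limma for both. Without control 3 they were 0.22 and 0.11, so the size of the difference rests largely on that 1 brain. Without control 2 the first target had a change of 0.85, with an adjusted p of 0.539 in limma. Of the 13 neighbouring targets within 100000 bases, 3 were above background on every array, and of these henmt1 was also lowest in control 3, at 10.33 against 10.95 to 11.68.

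serpinh1b encodes Hsp47, the ER chaperone of collagen. OTTDART00000026163 stood at 12.44, 11.12 and 9.75 in controls and 10.88, 10.84 and 11.12 after lead. OTTDART00000026164 stood at 13.09, 11.62 and 11.20 in controls and 11.53, 11.49 and 11.75 after lead. Control 1 was the highest in both and in 6 of 6 probes, control 3 the lowest, and the lead arrays lay between. The first target was below background on control 3. The targets overlap on chromosome 15 (25194318 to 25198617). The changes were -0.15 ± 0.60 and -0.38 ± 0.45, and without control 1 they turned to 0.52 and 0.18.

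Summed markers of vessels and meninges, tissues that make collagen, were likewise highest on control 1 and lowest on control 3. Of the 7 listed 5 were measured and 4 lay above background on every array. Their summed intensity was 27852 to 48484 in controls and 30137 to 46199 after lead, and the median deviation from the 6-array mean was 0.51 log2 on control 1 and -0.28 on control 3. Singly, 4 of the 5 were highest on control 1 and 2 of 5 lowest on control 3. The collagen gene col1a2 did both, at 11.64 and 10.45, whereas dcn was highest on lead 1, at 14.76 against 14.35 on control 1. The summed pituitary markers given above were also high on control 1. Nor was the order particular to serpinh1b. The ER genes edem1, herpud1, dnajb9b and dnajc3a and the regulator xbp1 were also highest on control 1 and lowest on control 3. Over all ER targets the median deviation was 0.11 log2 on control 1 and -0.12 on control 3. Other ER genes, such as hsp90b1, had another order. The part of these tissues in the serpinh1b values was not tested.

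**Figure D5:**
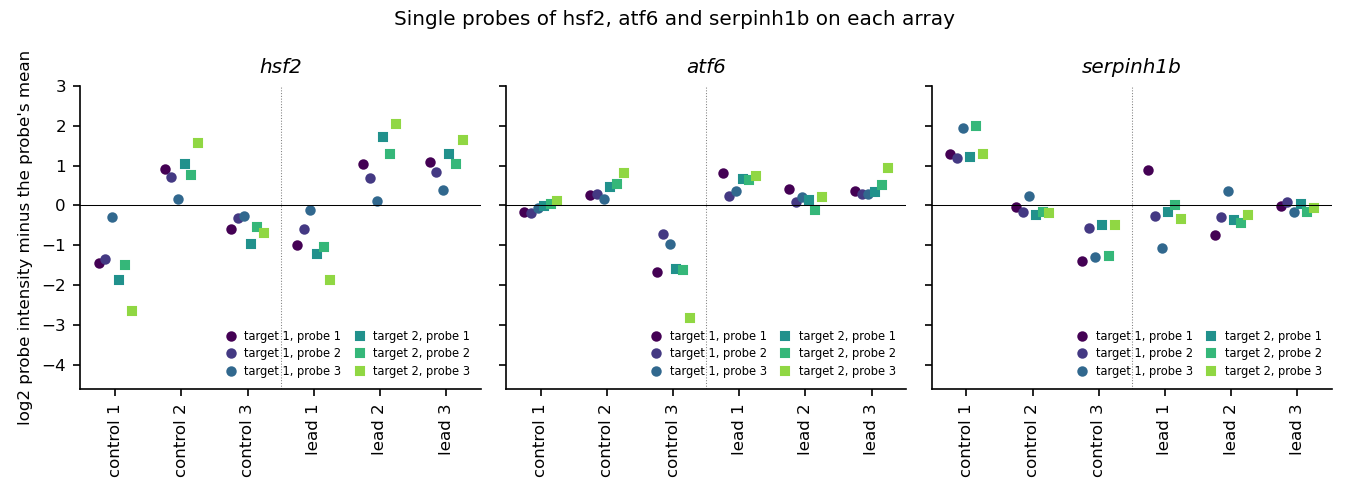
Single probes of hsf2, atf6 and serpinh1b on each array, as log2 intensity minus the mean of that probe over the 6 arrays; circles and squares mark the targets of a gene and colours its probes, with controls left and lead right of the dotted line. All 6 probes of each gene share a position: control 2, lead 2 and lead 3 high for hsf2, control 3 low for atf6, and control 1 high for serpinh1b.

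Some of the 15 genes without a target under their own symbol may be read by targets that the files name only after a homologue. There were 16 such targets under 9 names, which were not counted as members, since a homologue name does not settle which zebrafish gene a target reads. Of these 12 were higher and 4 lower, where 50.5% of all targets were higher. Their median change was 0.07 log2, against 0.00 over all targets. Some of the 16 overlap each other, so they are not independent. In limma 0 passed the adjusted threshold and 1 (6.25%) had an unadjusted p under 0.05, against 4.41% of all targets. Groups did not overlap for 2 (12.5%), against 9.49%. The target named for HSPA5, which is BiP, the main ER chaperone and the classical readout of ER stress, lies at 67556828 to 67564741 of chromosome 5 (assembly Zv7). It stood at 14.94, 14.84 and 14.73 in controls and 14.95, 14.98 and 14.83 after lead. The groups overlapped and the change was 0.08 ± 0.13, with an interval of -0.22 to 0.38.

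The mitochondrial Hsp70 target HSPA9B was at 0.04 ± 0.13, the disulfide isomerase target PDIA3 at 0.06 ± 0.13, and the stress factor target ATF4 at 0.06 ± 0.14. DDIT4, named for a stress-induced inhibitor of mTORC1, was at -0.26 ± 0.29, and the small heat shock target HSPB1 at -0.01 ± 0.25. DNAJA1, named for an Hsp70 co-chaperone, stood at 13.37, 13.39 and 13.28 in controls and 13.49, 13.74 and 13.56 after lead. Its groups did not overlap, and the change was 0.25 ± 0.13 with an adjusted p of 0.958 in limma. Of 6 targets named HSPA8, that on chromosome 8 (10397984 to 10398739, Zv7) stood at 12.25, 12.49 and 12.40 in controls and 12.81, 12.67 and 12.94 after lead. All lead arrays lay above the controls, at 0.43 ± 0.14 (limma, adjusted p = 0.958). Another HSPA8 target on chromosome 8 (825138 to 827334) was at -0.00 ± 0.23. The target with the highest mean of the 6 lies on chromosome 3 (23538344 to 23540970), near hsp70.3, which starts at 23549273. It stood at 14.23, 13.70 and 14.13 in controls and 14.36, 14.35 and 14.05 after lead. The groups overlapped, at 0.23 ± 0.18, and which Hsp70 gene this target reads was not tested. The brightest of the 3 on chromosome 15, which overlap, stood at 13.28, 12.39 and 11.32 in controls and 12.53, 12.48 and 12.68 after lead, at 0.24 ± 0.45. Control 1 was the highest there and control 3 the lowest, the order seen in serpinh1b. The 3 targets named DNAJB1 ranged from -0.07 ± 0.13 to 0.19 ± 0.20, and TC248456 and ZV700S00004307 among them overlap on chromosome 2.

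Beyond the members, 166 further genes of protein folding and stress were listed, of which 83 had a target with a symbol. Each gene was read by its target with the highest mean alone, and any other target of it is not reported. Of the 83 genes 51 were higher and 32 lower, where 50.5% of all targets were higher. Their median change was 0.05 log2, against 0.00 over all targets, and 0 passed the adjusted threshold in limma. An unadjusted p under 0.05 was found for 2 genes (2.41%, against 4.38% of all 15379 genes with a symbol), both lower. As listed, 39 of 56 genes under cytosolic, 2 of 11 under mitochondrial, 24 of 57 under ER and 18 of 42 under regulators were measured. The genes dnaja3b, hspa13, dnajb12a, dnajb12b and dnajb14 stood under cytosolic without a check of their compartment, so these are not counts by compartment. Groups did not overlap for 6 of the 83, where 9.56% of all genes with a symbol had such groups. These were dnaja2a, dnajb6b, st13, grpel1, ero1a and txndc5.

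txndc5, an ER protein disulfide isomerase gene (chromosome 24, 4688718 to 4704926), stood at 12.44, 12.09 and 12.33 in controls and at 11.82, 11.59 and 11.65 after lead. All lead arrays lay below all controls. The difference of -0.60 ± 0.15 had an interval of -0.94 to -0.25 (limma, adjusted p = 0.958). The authors' deposited table of 94 altered targets lists it with a fold score of -1.51 and a p-value of 0.00862, and holds 0 of the 50 member targets. As the table lists only 94 of the 38489 targets on the array, the absence of members is not a result about them. ahsa1a, which encodes an activator of the Hsp90 ATPase, stood at 10.83, 10.54 and 10.82 in controls and 10.11, 10.58 and 10.25 after lead. Lead 2 lay above control 2, so the groups overlapped, and 2 of the 3 lead arrays were above background. Its difference was -0.42 ± 0.17, with an adjusted p of 0.958 in limma.

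Coordinates are those of the files. The sources used here do not name the assembly of the OTTDART targets; the others follow Zv7.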

How the data were processed

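RNA from 6 whole brains was hybridised to one-colour NimbleGen arrays, 1 brain per array, with 3 brains per group as the labels give them. The authors deposited, per array, RMA target intensities on a linear scale, each target holding up to 3 probes; RMA is named in the submitters' processing notes without a version. They also deposited the single-probe intensities. The authors' deposited list of altered targets gives for each target a fold score with a sign, a p-value and a log2 ratio, per the file headers; its test is not given in the sources used here.

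Control features were left out, log2 was taken of the target intensity with no filter and no added constant, and lead was compared with control over all 38489 targets with limma 3.58.1 in R 4.3.3 (two-sided moderated test, Benjamini-Hochberg adjustment, threshold 0.05). Background was the 95th percentile of 27114 random probes on each array. The number of brains limits the precision. The fit was also run on simulated normal values, drawn for each target independently with the variances of the fit itself. Such a run cannot show effects of array or tissue content, and no result here rests on it. Tables were made with pandas 2.3.3 and numpy 2.4.6 under Python 3.11.15, and plots with matplotlib 3.10.9.

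Targets were named by the symbol in the files, by RefSeq accession (2663 of 3055 matched) or by an older name updated through the RefSeq table of the assembly GRCz12tu, which was used for names only. Of 38489 targets 21264 received a symbol. Where a member gene had several targets, each is reported, and the target with the highest mean stands for the gene in counts of genes. For the further genes of protein folding and stress and for the cell type markers, only the target with the highest mean was used. Other targets of those genes are not reported. The text gives values on all arrays for up to 4 targets per class with the largest change above background, for targets whose groups did not overlap or whose unadjusted p was under 0.05, for up to 2 with the widest spread per class, and for the central genes of each branch; a few further genes were named after their values were seen. The members and the gene lists were chosen with earlier results of these data known.

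The alternatives were renormalization, centring on the median, an added constant of 100, 2 filters on dim targets, the median of the probes in place of RMA, an ordinary linear model, the replicate number as a block, every target of a gene, and leaving out each array. Sequences were not used here.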

Additional observations from a re-analysis of the deposited data

How the results depend on the processing

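No member target passed the adjusted threshold under the 14 alternatives run for that count. Over all targets 1 passed when targets under the median intensity were left out (ENSDART00000077505, not a member, adjusted p = 0.0433 in limma). Member targets with an unadjusted p under 0.05 went from 0 to 2 in an ordinary linear model without moderation (hsp90ab1 and hspa8), to 1 with the replicate number as a block (hsf2, adjusted p = 0.850 in limma), and to between 0 and 1 when each array was left out. Leaving out an array gave 1 without control 2, lead 1 or lead 3. Non-overlapping member targets went from 5 to 3 with renormalization and with either filter on dim targets, and to between 7 and 10 with an array left out, where smaller groups overlap less by construction. The filters also left fewer member targets to count. For these settings the shares of all targets under an unadjusted p of 0.05 or without overlap were not computed. The changed counts are therefore not results about the members. The ER median of 0.02 became -0.068 with the median of the probes and ran from -0.082 to 0.11 with an array left out. The mitochondrial median of -0.01, over 3 targets, became -0.085 with the median of the probes and 0.090 with either filter, and ran from -0.032 to 0.075. The cytosolic median of 0.05 ran from -0.0080 to 0.086, and that of the regulators, 0.01, from -0.02 to -0.00. The sign of each class median therefore depended on single arrays, and medians this small have no direction. Of 36 genes 21 were higher; this was 14 to 22 with an array left out and 16 with the median of the probes. The targets of 6 of 9 genes with several had 1 direction. For hspb8 and hspd1 this counts targets below background, and for sesn2 a change of -0.00. Same-numbered arrays had correlations of deviations of 0.31, 0.033 and -0.047, and not every array correlated best with its own number, so the replicate numbers were not taken to pair the brains.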
